A study of Mus musculus with 4 samples.

Results

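Kv1 and Kv3 channels are voltage-gated potassium channels that set how a neuron fires. The genes examined here are 10: the Kv1 pore subunits Kcna1, Kcna2, Kcna4 and Kcna6, the Kv beta subunits Kcnab1 and Kcnab2, the Kv3 pore subunits Kcnc1, Kcnc2 and Kcnc4, and Kcng4, a modifier subunit. They were chosen by name, with earlier results of these data known. Every probe set that the platform annotation gives to exactly 1 of these symbols was taken. This made 25 of the 34945 probe sets with 1 gene symbol and 10 of 18193 genes. The 4 samples held cerebellar Purkinje cells taken by laser capture, 2 samples from each of 2 intact male C57BL/6J mice aged 8 weeks. They are written below as 1-1 and 1-2 (animal 1) and 2-1 and 2-2 (animal 2). No treatment or genotype differed between them, and the labels do not say whether the samples of 1 animal were separate captures, so the spread within an animal may be technical. RNA amplified from the captures was hybridized to Affymetrix arrays. Samples of the granule cell layer, named in the design of the series, were not analysed here.

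As background, Purkinje cells are the output neurons of the cerebellar cortex and fire fast, brief action potentials. Kv1 channels open at low voltage and restrain excitability; they gather at axons and at the basket cell terminals that wrap the Purkinje axon, and cytoplasmic beta subunits bind them and can speed inactivation. Kv3 channels open at high voltage and close quickly, which shortens the spike and permits high firing rates.

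Of the 10 genes, 7 gave a signal above background on all 4 arrays: Kcna1, Kcna2, Kcna6, Kcnab1, Kcnab2, Kcnc1 and Kcng4. Kcna4 did so on 3 arrays, and Kcnc2 and Kcnc4 on none with the background genes and bound used here. At the 90th in place of the 95th percentile of those genes, the Kcnc4 probe set 1425090_s_at ran from -0.55 to 0.73 on the log2 scale relative to the bound, so that its count of arrays depends on where the bound is set. Background here is a bound set on each array at the 95th percentile of 74 genes known from organs other than brain. Of these background genes, Krt10 and Tff1 themselves passed it on all 4 arrays. Their quantile-normalized log2 levels were 7.40 ± 0.44 and 6.48 ± 0.32 (mean ± SD, n = 2 animals). The Krt10 mean was above those of Kcnab2 (7.21 ± 0.17) and Kcng4 (7.29 ± 1.16), so these 2 calls rest on signals no brighter than a background gene's. By the same count 29.1% of all named genes had at least 1 probe set above the bound on all 4 arrays. Since the 10 genes were chosen with earlier results known, their share describes the list and is not a test against all genes. Per probe set, 10 of the 25 were above on all 4 arrays (40%), 2 on some and 13 on none, against 21% of all probe sets with 1 symbol. The arrays do not compare amounts of different genes, because probe sets respond differently to the same RNA. In a capture, fewer cells of a type and less RNA per cell cannot be told apart.

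**Figure D1:**
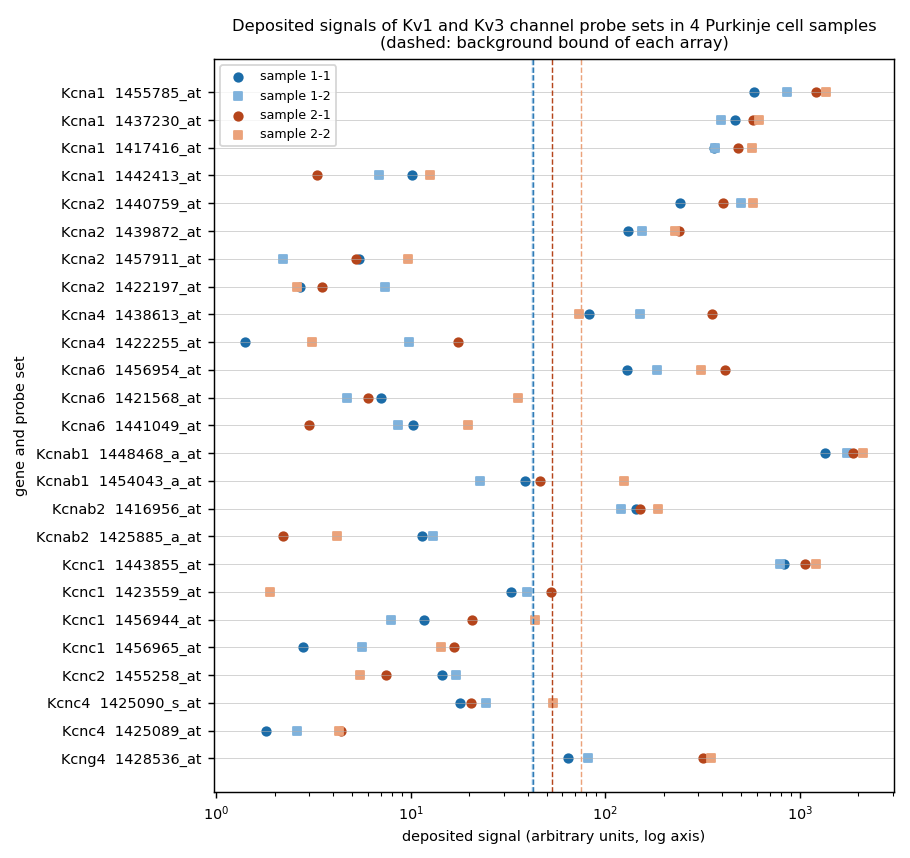
Deposited signal (arbitrary units, log axis) of each of the 25 probe sets in the 4 samples; dashed lines are the background bounds of the arrays on the deposited scale, from 42.2 to 75. Kcna1, Kcna2, Kcna6, Kcnab1, Kcnab2, Kcnc1 and Kcng4 each have a probe set whose 4 points lie to the right of the line of their own array, and the points of Kcng4 split by animal.

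The arrays of animal 2 were brighter as a whole. The median deposited signal was 8.40, 8.50, 9.60 and 11.4 in samples 1-1 to 2-2, and the trimmed mean of the brightest array was 1.57 times that of the dimmest. Levels below are therefore quantile-normalized log2 signals, with mean ± SD over 2 animals, beside the deposited signals. The labelled cell type was checked on its markers. All 12 measured Purkinje markers of a list of 16 were above the bound on all 4 arrays, with the calcium-binding Calb1 at 13.68 ± 0 (SD, n = 2 animals; it held the top rank on each array), Pcp4 at 13.58 ± 0.06 and Car8 at 13.50 ± 0.04, and Homer3 at 9.29 ± 0.22 and the transcription factor Foxp2 at 8.84 ± 0.02 as the lowest. Some markers of other cells were above the bound too. Bergmann glia and astrocyte genes were above the bound in 10 of 15 cases (Gja1 11.72 ± 0.40, Hopx 11.58 ± 0.04, Timp4 11.08 ± 0.42, with Hes5 and Slc6a11 below the bound on every array). Granule cell genes were above it in 5 of 13 (Zic1 10.52 ± 0.91, Gabra6 9.30 ± 0.87, Cbln1 8.55 ± 0.71, with Pax6 and Slc17a7 below it on every array). Oligodendrocyte genes were above it in 4 of 13 (Cnp 11.38 ± 0.48, Mbp 10.18 ± 0.09, Olig1 8.35 ± 0.37, with Mog and Olig2 below it on every array). The Gja1, Cnp and Mbp levels come from probe sets with the suffix _x_at, a kind that can bind several transcripts. Interneuron genes were above it in 3 of 12 (Lgi2 7.72 ± 0.57, Npas3 7.17 ± 1.08, Prkcd 6.87 ± 0.47, with Slc6a5 and Sst below it on every array). The Npas3 and Prkcd means were below that of the background gene Krt10 (7.40). By the same count, on the brightest probe set of each gene, 29% of all named genes were above the bound.

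Kcna1 encodes Kv1.1, the subunit mutated in episodic ataxia with myokymia in humans, and 3 of its 4 probe sets were above the bound on all 4 arrays. On 1455785_at the deposited signals were 580.1 and 854.8 in animal 1 and 1215.8 and 1362.4 in animal 2, a normalized level of 9.90 ± 0.29 (SD, n = 2 animals). On 1437230_at they were 466.2, 394.2, 576.6 and 618.1 (8.98 ± 0.03). On 1417416_at they were 361.5, 365.0, 479.2 and 570.3 (8.77 ± 0.02). After normalization the animals overlapped on 1437230_at and 1417416_at and not on 1455785_at, where sample 1-1 was lowest. The remaining probe set, 1442413_at, stayed between 3.3 and 12.5, below the bound on every array.

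Kcna2 encodes Kv1.2, which assembles with Kv1.1, and 2 of its 4 probe sets were above the bound on all 4 arrays. On 1440759_at the deposited signals were 243.1, 500.1, 404.5 and 571.6 (8.67 ± 0.04, SD, n = 2 animals). On 1439872_at they were 131.1, 155.2, 240.3 and 229.1 (7.52 ± 0.10). On the first, the samples of animal 1 lay 0.99 apart on the log2 scale, wider than the gap between the animals, so the small SD over animals hides a wide spread of samples. The other probe sets, 1457911_at and 1422197_at, ran from 2.2 to 9.7 and from 2.6 to 7.4, below every bound.

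Kcna6, which encodes Kv1.6, was above the bound on 1 of 3 probe sets. Its deposited signals on 1456954_at were 128.9, 183.4, 413.9 and 309.6 (7.88 ± 0.46, SD, n = 2 animals), with both samples of animal 2 above both of animal 1. Its other probe sets, 1421568_at and 1441049_at, lay between 4.7 and 35.6 and between 3.0 and 19.8, below the bound. In the RefSeq order of protein-coding genes Kcna6 and Kcna1 are neighbours on chromosome 6, next to Kcna5. Kcna5 was below the bound on all 4 arrays, at 5.2, 1.9, 2.6 and 1.0. Kcna2 lies between Kcna3 and Kcna10 on chromosome 3, and Kcna3 was likewise below the bound, at 6.9, 4.7, 10.5 and 3.6. Clustered genes of the family thus gave signals on both sides of the bound.

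Kcna4 encodes Kv1.4, the fast-inactivating Kv1 subunit, and was uneven between samples. On 1438613_at the deposited signals were 82.8, 151.3, 352.3 and 73.3 (7.07 ± 0.03, SD, n = 2 animals). Sample 2-1 was highest and sample 2-2 lowest, 2.56 apart on the normalized log2 scale, and the 2-2 value missed its array's bound by 0.03. Without sample 2-2 Kcna4 was above the bound on the other 3 arrays. Its second probe set, 1422255_at, ran from 1.4 to 17.5, also with sample 2-1 highest, and was below the bound throughout.

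Kcnab1, which encodes the Kv beta 1 subunit, lay above the bound on every array by 4.88 to 5.32 in log2 units. The deposited signals on 1448468_a_at were 1340.9, 1743.2, 1875.4 and 2122.7 (10.77 ± 0.06, SD, n = 2 animals). The suffix _a_at marks a probe set that can bind several transcripts of a gene, so the isoforms behind this value are not resolved. On 1454043_a_at the signals were 38.7, 22.7, 46.0 and 124.1, and sample 2-2 alone was above its bound. Kcnab2, which encodes the beta 2 subunit, gave 143.5, 120.4, 150.9 and 185.8 on 1416956_at (7.21 ± 0.17), above the bound by 1.30 to 1.76. Its other probe set, 1425885_a_at, was below the bound, with 11.4 and 13.0 in animal 1 and 2.2 and 4.2 in animal 2. The Kcnab2 call was close to the bound: at the 99th percentile of the background genes it was lost by 0.04.

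**Figure D2:**
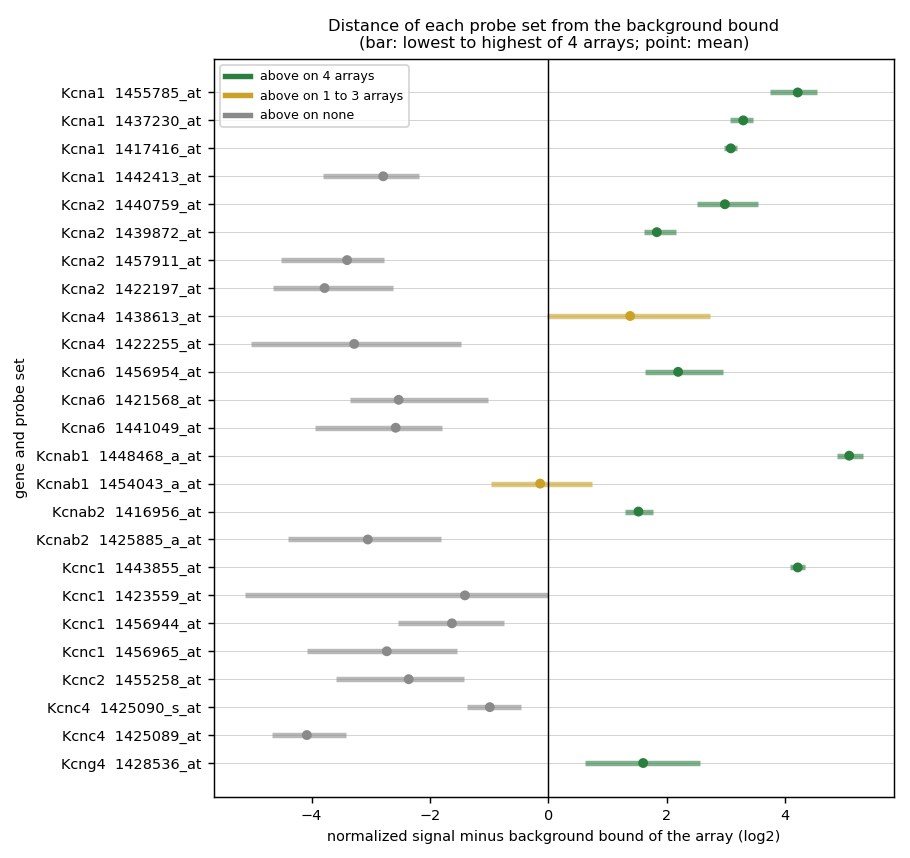
Normalized log2 signal minus the background bound of the same array for each of the 25 probe sets; bars run from the lowest to the highest of 4 arrays and points are means. The bar of Kcnab1 1448468_a_at runs from 4.88 to 5.32, and 6 of the 8 genes with several probe sets have some above and some not above the bound on all arrays.

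Kcnc1 encodes Kv3.1, and 1 of its 4 probe sets was above the bound on all 4 arrays. On 1443855_at the deposited signals were 829.8, 792.4, 1058.4 and 1209.3 (9.90 ± 0.01, SD, n = 2 animals). The samples kept nearly the same normalized level, from 9.86 to 9.94, and the highest deposited signal was 1.53 times the lowest, about the ratio of the arrays' own brightness. Its other probe sets were below the bound on every array: 1423559_at at 32.6, 39.4, 52.7 and 1.9, 1456944_at between 7.9 and 43.7, and 1456965_at between 2.8 and 16.6. On 1423559_at sample 2-2 stood far below the others, and sample 2-1 reached its bound without passing it. The sources used here do not say which part of the transcript each probe set reads.

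Kcnc2 encodes Kv3.2, known from fast-spiking interneurons, and its 1 probe set, 1455258_at, was below the bound on every array. The deposited signals were 14.4 and 17.0 in animal 1 and 7.5 and 5.5 in animal 2, all at least 1.42 below the bound on the normalized log2 scale. Kcnc4, which encodes Kv3.4, was below it on both probe sets. The signals were 17.9, 24.5, 20.4 and 53.6 on 1425090_s_at, which can bind transcripts of several genes, and 1.8, 2.6, 4.4 and 4.3 on 1425089_at. The first came within 0.46 of the bound on 1 array. A signal below the bound is read here only as not above background, and does not show that a transcript was absent. Among the 10 genes, 1 of 3 Kv3 pore subunits and 3 of 4 Kv1 pore subunits were above background on all arrays, against 29.1% of all named genes. The Kv1 pore subunits Kcna3, Kcna5 and Kcna7, counted below among the other Kv genes, were below the bound on every array.

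Kcng4 encodes Kv6.4, which forms no channel alone and modifies channels of other Kv subunits. Its 1 probe set, 1428536_at, gave deposited signals of 64.2 and 81.4 in animal 1 and 318.6 and 350.1 in animal 2 (7.29 ± 1.16, SD, n = 2 animals). All were above the bound, by 0.61 to 2.56, and the animals did not overlap. At the 99th percentile bound the Kcng4 call was lost, with the lowest array 0.49 under it.

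The reference windows upstream of 4 of these genes show how different their starts are. They run from 250 bases before to 50 after the start, are read from RefSeq (GRCm38.p6), and are given for Kcna2 and Kcnc1, both above background, for Kcng4, which stood apart between the animals, and for Kcnc2, below the bound (the first of its 4 windows). Capitals mark matches, on either strand, of TATAAA, of GGGCGG (the GC box), of CCAAT and of AGGTCA (the core of the sites bound by ROR receptors).
Kcna2, chr3:107101317-107101616, strand +: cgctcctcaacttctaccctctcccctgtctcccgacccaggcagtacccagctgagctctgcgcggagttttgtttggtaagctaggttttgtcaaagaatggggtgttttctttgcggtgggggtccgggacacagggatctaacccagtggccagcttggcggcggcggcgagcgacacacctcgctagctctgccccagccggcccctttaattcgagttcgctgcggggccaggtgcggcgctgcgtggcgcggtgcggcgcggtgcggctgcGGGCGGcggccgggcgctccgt
Kcnc1, chr7:46396218-46396517, strand +: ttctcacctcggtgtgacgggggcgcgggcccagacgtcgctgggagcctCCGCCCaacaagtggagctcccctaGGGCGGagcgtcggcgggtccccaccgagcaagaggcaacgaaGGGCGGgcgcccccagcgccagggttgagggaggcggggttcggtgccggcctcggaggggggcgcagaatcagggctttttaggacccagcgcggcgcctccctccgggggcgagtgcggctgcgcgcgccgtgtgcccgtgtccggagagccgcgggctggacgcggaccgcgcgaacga
Kcng4, chr8:119635631-119635930, strand -: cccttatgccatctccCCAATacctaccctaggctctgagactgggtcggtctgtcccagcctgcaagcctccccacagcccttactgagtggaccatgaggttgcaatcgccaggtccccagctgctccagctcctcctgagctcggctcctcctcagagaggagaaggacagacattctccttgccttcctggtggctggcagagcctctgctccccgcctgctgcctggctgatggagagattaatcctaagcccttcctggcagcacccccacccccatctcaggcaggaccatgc
Kcnc2, chr10:112269767-112270066, strand +: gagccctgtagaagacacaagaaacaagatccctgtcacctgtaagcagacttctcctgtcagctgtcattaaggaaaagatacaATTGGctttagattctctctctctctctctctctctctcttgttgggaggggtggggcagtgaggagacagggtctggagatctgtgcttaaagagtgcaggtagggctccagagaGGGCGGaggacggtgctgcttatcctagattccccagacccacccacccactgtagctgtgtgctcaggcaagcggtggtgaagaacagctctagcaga
The Kcnc1 window was 74.7% G and C with 41 CpG dinucleotides and 3 GC boxes. The Kcna2 window was 66.7% G and C with 31 CpG and 1 GC box. The Kcng4 window was 61.3% G and C with 4 CpG and 1 CCAAT, and the Kcnc2 window was 52.7% with 3 CpG, 1 GC box and 1 CCAAT. The median over all 32851 windows of the table was 52.7% and 7 CpG. The table held 16 windows for 9 of the 10 genes, all but Kcna1. GGGCGG was in 7 of the 16, against 35.7% of all windows, and CCAAT in 5, against 37.4%. Some windows of 1 gene overlap, as in Kcnc2, where the same CCAAT match was counted in more than 1 window. TATAAA was in 1 (13.6% of all) and AGGTCA in 0 (16.3% of all). These matches describe letters only, and genes on both sides of the bound had windows rich in CpG: Kcna4, not above on all arrays, had 20 CpG and Kcnc4, below on all, had 17.

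The only contrast the labels give is animal 2 against animal 1, and since both animals carry the same labels it describes these samples. The fit took 11285 probe sets that passed the bound on 2 or more arrays, of which 11 belong to 8 of the 10 genes, with Kcnc2 and Kcnc4 having none. None of the 11 was called by limma with Benjamini-Hochberg adjustment, and 1 had an unadjusted p under 0.05. Over all probe sets tested 0.222% were called higher and 0.16% lower in animal 2, and 8.37% and 8.98% had an unadjusted p under 0.05 in those directions. The 11 probe sets passed a filter on signal, and 14 did not.

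Of the 11, Kcng4 had the largest difference between the animals. Its level in animal 2 exceeded that in animal 1 by 1.65 ± 0.34 log2 units (SE from limma with 2 samples per animal, 95% confidence interval 0.83 to 2.46), a ratio of 3.13, with an unadjusted p of 0.00214 and an adjusted p of 0.102. That misses the threshold of 0.05. Without normalization, which leaves a median shift of 0.47 towards animal 2 over all tested probe sets, the difference was 2.21 ± 0.38 and was called (adjusted p = 0.0278, limma). In that setting 618 probe sets were called in all, against 43 after normalization. Without sample 2-1 or 2-2 the Kcng4 difference was 1.59 and 1.72, and without sample 1-1 or 1-2 it was 1.48 and 1.80. Each of these fits leaves 1 sample in 1 animal, so its spread comes from the pair of the other animal alone.

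Marker lists were measured in the same samples. The summed normalized signal of 13 granule cell genes was 4120 and 5150 in animal 1 and 1830 and 2050 in animal 2, and that of 12 interneuron genes was 770 and 856 against 597 and 704. For 15 Bergmann glia and astrocyte genes it was 14200 and 13900 against 11800 and 10600, for 13 oligodendrocyte genes 5430 and 5230 against 4710 and 3500, and for 12 Purkinje genes 70500 and 71400 against 75800 and 75800. Of the markers tested, 1 of 6 granule genes was called lower in animal 2 (Zic1, -1.29 ± 0.18, SE, limma adjusted p = 0.0498) and 1 of 12 Purkinje genes higher (Pcp2, 0.57 ± 0.07, adjusted p = 0.0412). No marker of these lists had a deposited value of 0, but the lowest was 0.2 in the oligodendrocyte list and 0.7 in the granule list. The granule, glial and interneuron sums were thus lower in animal 2, where the Kcng4 mean was higher, but single markers went the other way. Between the animals, 2 of 13 granule, 4 of 12 interneuron, 4 of 15 Bergmann glia and astrocyte and 4 of 13 oligodendrocyte genes had the higher mean in animal 2, genes below the bound included. Among them were the interneuron genes Nxph1 (log2 difference 2.41 ± 0.70, SE, limma adjusted p = 0.175) and Prkcd (0.67 ± 0.41, adjusted p = 0.454) and the glial genes Gfap (0.87 ± 0.58), Fabp7 (0.57 ± 0.32) and Olig1 (0.52 ± 0.28), none of them called. The part of these markers in the Kcng4 difference was not tested.

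The other 10 probe sets tested lay within 0.65 of no difference, and 8 of them within 0.25. Kcna6 stood at 0.65 ± 0.37 (SE and adjusted p = 0.414 from limma with 2 samples per animal, 95% confidence interval -0.23 to 1.53). Kcna1 stood at 0.41 ± 0.21 on 1455785_at (adjusted p = 0.381, limma), but at -0.04 ± 0.24 and 0.02 ± 0.23 on its other bright probe sets. Kcnc1 stood at 0.01 ± 0.16 (95% confidence interval -0.38 to 0.40) and Kcnab1 at -0.08 ± 0.15 (-0.44 to 0.29), the narrowest intervals of the 11. Those of Kcna2 were wider, -0.93 to 0.81 and -0.65 to 0.93, and Kcna4, with its uneven samples, could differ by -1.99 to 1.89. Kcnab2 stood at -0.24 ± 0.34 (-1.05 to 0.58). Kcnc1 is also known from granule cells, whose summed markers were lower in animal 2 as given above. The part of granule cells in the Kcnc1 signal was not tested.

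**Figure D3:**
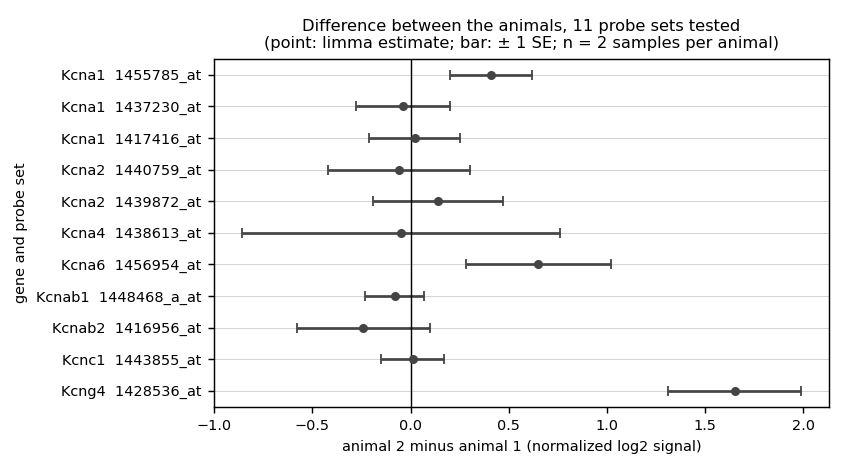
Difference of animal 2 minus animal 1 in normalized log2 signal for the 11 probe sets tested; points are limma estimates and bars are 1 SE either side (2 samples per animal). Kcng4 stands at 1.65 and the other 10 lie between -0.24 and 0.65.

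In 3 of the 11 probe sets (Kcna1 1455785_at, Kcna6 and Kcng4) both samples of animal 2 lay above both of animal 1, and in 1 (Kcnab2) both lay below. Of all probe sets tested 23% and 25.9% did so. The median absolute difference of the 11 was 0.08, and that of all probe sets tested 0.42. Their median signed difference was 0.01, against -0.05 over all.

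Most of the other Kv genes listed were below background. The list held 20 other alpha, beta and Kcne genes, of which 16 were measured, and 1, Kcns2, was above the bound on all 4 arrays by its brightest probe set. By that count 29% of all named genes were above. Both gene lists were drawn up with earlier results of these data known, so their counts do not test 1 list against the other. Kcns2 encodes Kv9.2, like Kv6.4 a silent modifier subunit. Its deposited signals on 1457325_at were 230.5, 328.3, 490.3 and 681.1 (8.65 ± 0.39, SD, n = 2 animals), and its difference between the animals was 0.55 ± 0.28 (SE, limma, adjusted p = 0.361). The beta subunit Kcnab3 was below the bound on every array, at 2.1, 1.8, 1.6 and 8.9, unlike Kcnab1 and Kcnab2. The 4 genes of the list without values were not analysed here.

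Among 8 genes of the complex that clusters and anchors Kv1 channels, 5 were above the bound on all 4 arrays, against 29% of all named genes. Adam22 and Adam23, receptors of the secreted protein Lgi1, were among them. Adam23 gave 938.0, 1633.8, 2185.1 and 2552.3 (10.74 ± 0.34, SD, n = 2 animals) and Adam22 gave 290.7, 457.8, 208.3 and 675.5 (8.52 ± 0.35). Lgi1 itself was below the bound on every array, at 42.4, 15.6, 21.7 and 53.1, reaching within 0.01 of it in sample 1-1. Of the scaffolds, Dlg2 (PSD-93) stood at 8.94 ± 0.34 and Dlg1 at 6.45 ± 0.43, while Dlg4 (PSD-95) was below the bound, at 1.8, 8.8, 14.3 and 71.5. The Dlg1 mean was below those of the background genes Krt10 (7.40) and Tff1 (6.48), so its call rests on a signal no brighter than theirs. Cntnap2, the Caspr2 protein of the juxtaparanode, gave 433.4, 415.4, 306.9 and 347.4 (8.53 ± 0.64), with both samples of animal 2 below both of animal 1 (-0.91 ± 0.25, SE, limma, adjusted p = 0.159). Its partner Cntn2 was below the bound. None of the 5 tested genes of this list was called between the animals, nor was Kcns2.

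**Figure D4:**
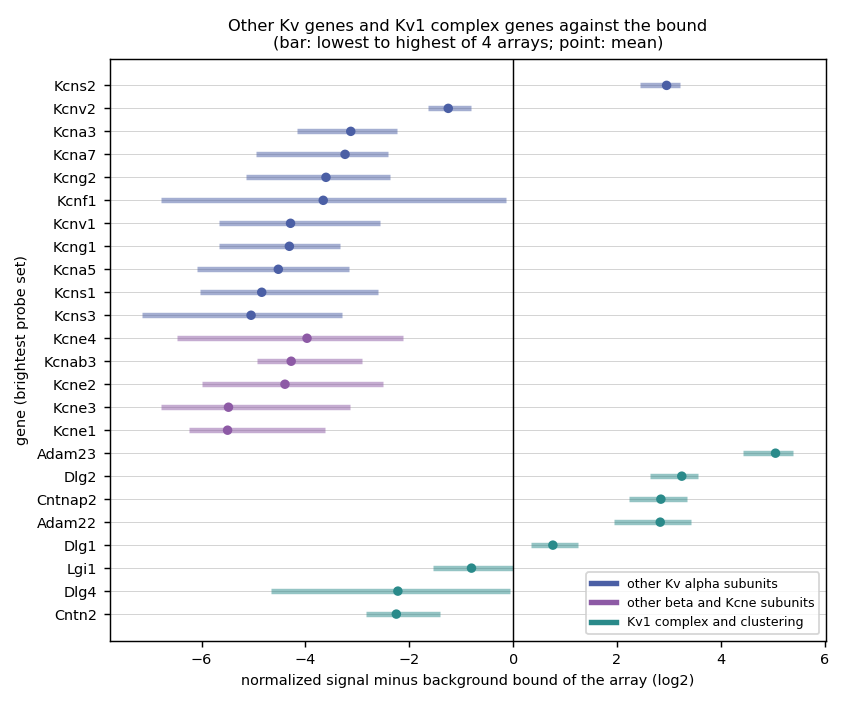
Normalized log2 signal minus the background bound of the same array for the brightest probe set of 16 other Kv genes and 8 Kv1 complex genes; bars run from the lowest to the highest of 4 arrays and points are means. Kcns2 and 5 complex genes (Adam23, Dlg2, Cntnap2, Adam22 and Dlg1) lie wholly above 0.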

How the data were processed

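The authors deposited linear intensity values, 1 for each probe set on each array. They were produced by GCOS, per the submitters' processing notes. The sources used here give no version, algorithm, scaling target or detection calls. The table held 45101 probe sets, 64 of them controls, and 1 value listed as 0. Columns of other samples numbered 0. Names came from the platform annotation table: 34945 probe sets had 1 symbol, 932 had several and 9160 had none there. All 25 member probe sets kept their symbol in a RefSeq table (GRCm38.p6, used for names), with 0 differing. The number of arrays limits the precision. With only 2 animals, compared with each other, the limma intervals rest on the spread of samples within an animal and not between animals.

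Signals below 0.1 were set to 0.1 and log2 was taken. Trimmed means (2% from each end) differed by 46.6% of their average, past a limit of 5%, so arrays were quantile-normalized in limma 3.58.1 (R 4.3.3). The background list held 82 genes, of which 74 were used, and 2 of these, Krt10 and Tff1, passed the bound on all 4 arrays. A list gene's level was that of its brightest probe set. Animals were compared with lmFit and eBayes, trend on (2 residual degrees of freedom). The fit was also run on simulated data with independent noise in each sample. Such data cannot show how it behaves where the samples of an animal may be technical. The members and lists were chosen with earlier results of these data known. All probe sets of the 10 genes were named, list genes where above the bound on all 4 arrays or called, and the 3 highest and 2 lowest of each marker list. Other genes of the lists (Kcna3, Kcna5, Kcna7, Kcnab3, Lgi1, Dlg4, Cntn2, Nxph1 and Gfap) were named after their values were seen. No correlation across samples was computed, since 4 samples are too few.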

Additional observations from a re-analysis of the deposited data

Results flagged for a closer look

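One value stood far from the others. On Kcnc1 1423559_at the normalized log2 level of sample 2-2 was 0.67, while the other samples lay at 5.28, 5.55 and 5.61, and the gap took 0.93 of the whole range, above Dixon's 95% critical value for 4 samples. All 4 were below the background bound. The brightest Kcnc1 probe set had the same sample at 9.88, among the others. Of 25 probe sets examined this was the only one, and chance alone marks about 1 in 20.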

How the results depend on the processing

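The count of 10 probe sets above the bound ran from 8 to 12, and that of 7 genes from 5 to 8, over other percentiles, values as deposited, a bound passed on at least 2 arrays, fewer probe sets and each sample left out. At the 99th percentile Kcnab2 and Kcng4 were lost; at the 90th Kcna4 and the second Kcnab1 probe set were gained. The other Kv and Kv1 complex counts were recomputed under these alternatives except the one with fewer probe sets, most of them added after seeing the data, and stayed at 1 and at 4 or 5. The count of the 11 tested probe sets called between animals was 0, and 1 (Kcng4) on values as deposited. Leaving out 1 sample gave 0 to 1. Over all probe sets tested the calls numbered 43, and 618 as deposited, 34 with scaled arrays, 55 with an offset of 16, 5 with no filter and 0 with no trend; without 1 sample they ran from 7 (without 1-1 or 1-2) to 1074 (without 2-2), with 954 without 2-1. The residual spread then came from the pair of the other animal. Of 99 alternative differences of the 11 probe sets, 78 kept their direction and side of the threshold, 3 (all Kcng4) passed it and 18 changed sign, none of them called. As deposited these were Kcna1 1437230_at (0.48), Kcna2 1440759_at (0.46), Kcna4 (0.52), Kcnab1 (0.38) and Kcnab2 (0.35); the brighter arrays of animal 2 shift all such values up. Scaled to 1 trimmed mean, Kcna4 was at 0.02 and Kcnc1 at -0.02, and with the offset Kcna4 was at 0.01. Leaving out each sample in turn gave -0.17 to 0.10 for Kcna1 1437230_at, -0.55 to 0.43 for Kcna2 1440759_at, -0.03 to 0.31 for Kcna2 1439872_at, -1.32 to 1.24 for Kcna4, -0.25 to 0.10 for Kcnab1 and -0.03 to 0.05 for Kcnc1. The Kcna4 values turn on which sample of animal 2 is left out. Normalized levels of the 25 probe sets moved by more than their SD over animals in 0 cases as deposited and in 2 with scaled arrays. A second list of background genes was not run, because no list of an earlier analysis was given. No paired analysis was possible because there is 1 group and sample numbers within an animal pair nothing.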
